A study of Mus musculus with 21 samples.

Results

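The nuclear genes of oxidative phosphorylation were followed across resting and lipopolysaccharide (LPS) stimulated mouse bone-marrow-derived macrophages that had or had not been given dimethyl malonate (DMM) or succinate. Members were all rows of the count table whose symbol begins as a subunit gene of complex I (Nduf), complex III (Uqcr), complex IV (Cox4i to Cox8) or complex V (Atp5). Of 34573 genes in the table, 82 matched, and after the pseudogene Atp5l-ps1 was dropped 81 members were left. They comprised 37 genes named for complex I, 8 for complex III, 18 for complex IV and 18 for complex V. The symbol pattern itself used no expression value, but the members were chosen with earlier results of these data known. A minimum on low counts kept 68 for testing, of which 34 belonged to complex I, 8 to complex III, 11 to complex IV and 15 to complex V, and the 13 others are described near the end.

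Oxidative phosphorylation takes place in the inner mitochondrial membrane. Complexes I, III and IV pass electrons to oxygen and pump protons, and complex V, the ATP synthase, uses the proton gradient to make ATP. Complex II, succinate dehydrogenase, feeds electrons from succinate into the same chain; malonate competes with succinate at this enzyme, and DMM is an ester that enters cells and releases malonate. Macrophages stimulated with LPS are known for shifting ATP production towards glycolysis and for accumulating succinate. Nuclear subunits are translated in the cytosol and imported, and they assemble with a few subunits encoded by mitochondrial DNA.

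Cells came from C57bl/6 mice aged 12 weeks and were grown from marrow in L929-conditioned medium. The groups were DMM for 3 h then LPS for 4 h (DMM+LPS 4 h, 2 libraries), succinate for 3 h then LPS for 4 h (succinate+LPS 4 h, 1 library), LPS for 4 h (2), DMM then LPS for 48 h (DMM+LPS 48 h, 2), succinate then LPS for 48 h (succinate+LPS 48 h, 1), LPS for 48 h (1 used), DMM without LPS (4), succinate without LPS (4) and untreated control (3). All groups received the same culture medium, and no source used here gives the doses. Another library labelled LPS 48 h held 55.7 counts per 1000000 counts (CPM) of 5 LPS-response genes, against 109700 CPM in the other one, and was kept out of every comparison. Libraries held 662186 to 1546867 counts, in whole reads per gene. The 9 macrophage markers were all detected, and the same 5 LPS-response genes summed to between 74610 and 133600 CPM in stimulated libraries and between 42.5 and 150.5 CPM in unstimulated ones. Markers of dendritic, B, T and NK, erythroid and mast cells summed to at most 12.7 CPM per list in any library used. The unstimulated columns do not give their hours, so each unstimulated treatment was taken as 1 group. Replicates are not said to be separate cultures or animals, and a p-value here sets a difference only against the scatter among these libraries, which may be technical. In bulk samples, fewer cells of a type and less RNA per cell cannot be told apart.

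Averaged by group, the members' summed level was lowest in DMM+LPS 4 h, though DMM+LPS 48 h library 1 lay between the libraries of that group. The sum was 2845 and 3709 CPM in DMM+LPS 4 h libraries, against 7113 and 7670 CPM in LPS 4 h libraries. The succinate+LPS 4 h library had 7654 CPM. At 48 h the DMM+LPS libraries differed from each other, with 3048 CPM in library 1 and 5776 CPM in library 2, and the sums were 7969 CPM in the succinate+LPS 48 h library and 7331 CPM in the LPS 48 h library. Unstimulated libraries lay between 4388 and 6658 CPM, below every LPS library that had no DMM and above every DMM+LPS library except library 2 at 48 h. Members took 0.327% of all counts in both DMM+LPS 4 h libraries, against 0.554% and 0.552% in LPS 4 h libraries.

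The gap was widest for complex IV, cytochrome c oxidase, the enzyme that reduces oxygen. Its genes summed to 710 and 1085 CPM in DMM+LPS 4 h libraries, against 2903 and 3089 CPM in LPS 4 h libraries. Complex V summed to 1145 and 1370 CPM after DMM+LPS for 4 h, against 2526 and 2682 CPM after LPS alone. Complex III summed to 285 and 329 CPM with DMM, against 489 and 583 CPM without it. Complex I summed to 704 and 926 CPM with DMM, against 1194 and 1316 CPM without it. The groups did not overlap in any of these 4 sums, and the plot of summed levels shows all libraries.

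**Figure D1:**
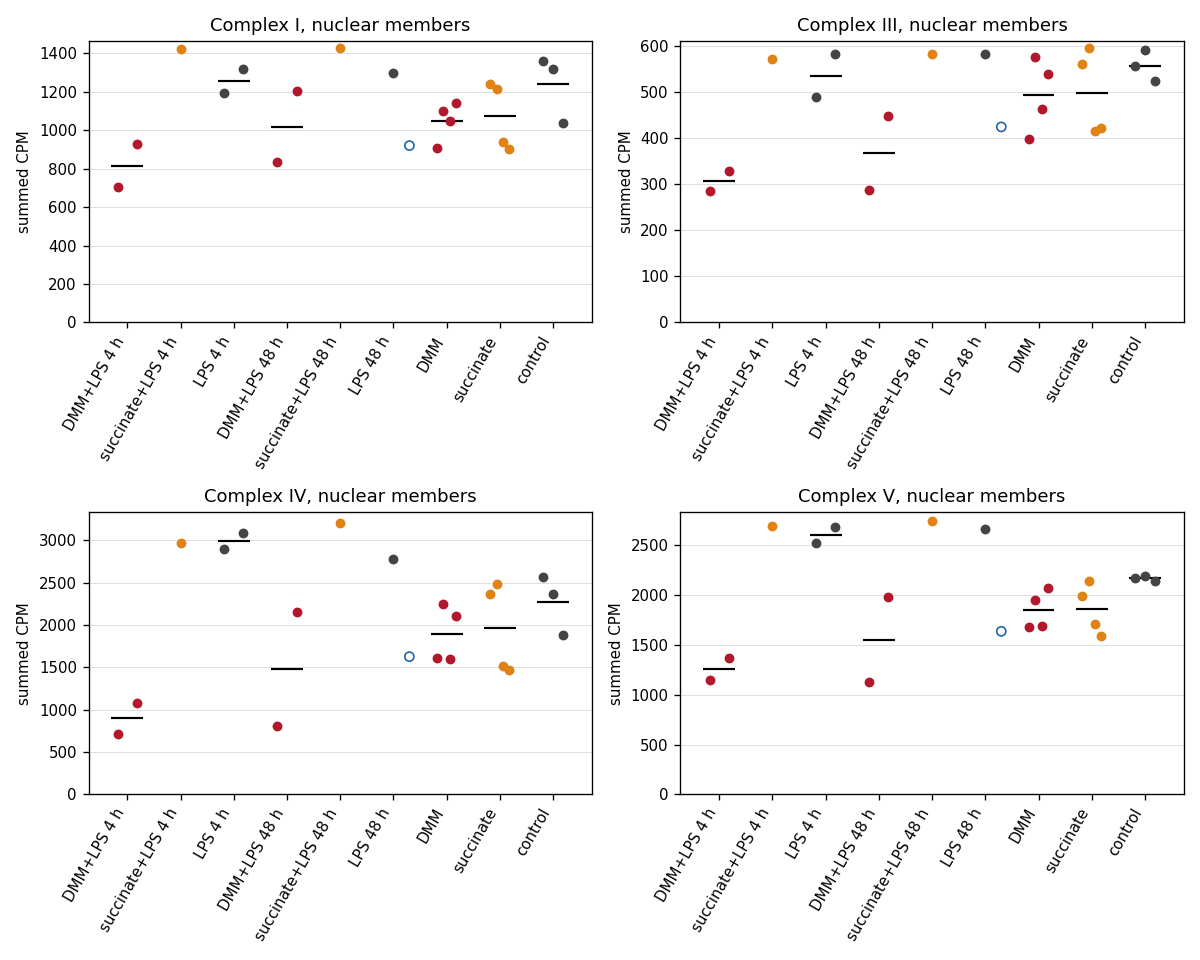
Summed CPM (vertical axes) of the nuclear genes of complexes I, III, IV and V by group. Points are libraries, black lines are means of groups with more than 1 library, and the open circle is the LPS 48 h library kept apart; complex IV is at 710 and 1085 CPM in DMM+LPS 4 h libraries, and of the other libraries only DMM+LPS 48 h library 1, at 803 CPM, is below 1085 CPM.

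Pretreatment with DMM before 4 h of LPS was followed by lower transcript levels of 24 of the 68 tested members and by higher levels of none, relative to LPS alone. The rates were 10 of 11 for complex IV, 10 of 15 for complex V, 1 of 8 for complex III and 3 of 34 for complex I. Over all genes tested, 14% were called in this comparison, 3.54% as higher and 10.5% as lower, by edgeR's quasi-likelihood test at an adjusted p under 0.05. The median log2 fold change was -1.38 for complex IV, -1.17 for complex V, -0.69 for complex III and -0.54 for complex I, against 0.04 over all genes tested. All 11 tested complex IV genes had a negative log2 fold change, from -2.2 to -1.17, and 7 of the 68 members had a positive one.

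Within complex IV, the lowest fold changes were those of Cox7a2l, a gene known as a supercomplex factor, and of Cox5b, a subunit on the matrix side. What Cox7a2l does in these cells was not examined. Cox7a2l had 121 and 183 CPM in DMM+LPS 4 h libraries, against 687 and 708 CPM in LPS 4 h libraries, a log2 fold change of -2.2 ± 0.37 (standard error, as for every ± below; adjusted p = 0.000117). Cox5b had 16.9 and 30.6 CPM with DMM, against 98.1 and 110 CPM without it (log2 fold change -2.17 ± 0.33, adjusted p = 4.33e-05). Both genes were lower in each DMM library than in each library with LPS alone. Cox4i1, the main form of a subunit that contacts the catalytic core, had 130 and 173 CPM with DMM, against 648 and 691 CPM without it (-2.15 ± 0.42, adjusted p = 0.000692). The called members with the smallest differences were Cox7b and Cox5a. Cox7b had 38.8 and 41.8 CPM with DMM, against 60.8 and 120 CPM without it (-1.17 ± 0.36, adjusted p = 0.0277). Cox5a, a matrix-side subunit, had 27.5 and 31.6 CPM with DMM, against 73.6 and 69.9 CPM without it (-1.28 ± 0.39, adjusted p = 0.0271). Cox6a1, Cox6b1, Cox6c, Cox7c and Cox8a also fell, by 1.32 to 2.04 on the log2 scale. Cox7a2, the only tested gene of this complex not called, had 34.8 and 44.6 CPM with DMM, against 73.6 and 111 CPM without it.

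Within complex V, Atp5l, which codes for subunit g of the membrane part, had 5.06 and 6.5 CPM in DMM+LPS 4 h libraries, against 23.5 and 46.3 CPM in LPS 4 h libraries (log2 fold change -2.6 ± 0.46, adjusted p = 0.000232). The 2 libraries with LPS alone differed from each other, and both lay above both DMM libraries. Atp5o, the oligomycin-sensitivity-conferring subunit of the peripheral stalk, had 16.3 and 17.6 CPM with DMM, against 55.5 and 64.5 CPM without it (-1.82 ± 0.37, adjusted p = 0.00101). At the other end of the called members, Atp5e, the epsilon subunit of the central stalk, had 33.7 and 46.4 CPM with DMM, against 76.8 and 88.2 CPM without it (-1.06 ± 0.35, adjusted p = 0.0385). Atp5a1, the alpha subunit of the catalytic head, had 233 and 290 CPM with DMM, against 537 and 569 CPM without it (-1.08 ± 0.32, adjusted p = 0.0221). Atp5b and Atp5c1, the beta and gamma subunits, fell by 1.15 and 1.24 on the log2 scale. Under cyclic loess scaling, described below, Atp5a1 and Atp5b were at 0.06 and 0.02. Atp5d, the delta subunit, was not called and had 169 and 204 CPM with DMM, against 182 and 168 CPM without it (log2 fold change 0.09). Atp5f1, Atp5g3, Atp5h and Atp5j, of the stalk and the membrane part, also fell.

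Fewer genes of complexes III and I passed the test. Uqcrc1, a core protein of complex III, had 74.7 and 73.4 CPM in DMM+LPS 4 h libraries, against 156 and 150 CPM in LPS 4 h libraries (-1.04 ± 0.28, adjusted p = 0.00988). The 3 called genes of complex I code for accessory subunits, which surround the catalytic core. Ndufb7 had 8.43 and 19.5 CPM with DMM, against 43.7 and 37.6 CPM without it (-1.62 ± 0.39, adjusted p = 0.00406). Ndufa13 had 32 and 53.9 CPM with DMM, against 109 and 82.8 CPM without it (-1.18 ± 0.4, adjusted p = 0.0471). Ndufa8 had 30.3 and 41.8 CPM with DMM, against 72.5 and 77.5 CPM without it (-1.07 ± 0.3, adjusted p = 0.014). The other 31 tested genes of complex I were not called, and 12 of the 34 had an unadjusted p under 0.05. No share of all genes was counted at an unadjusted p, here or below, so such counts have no background beside them.

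**Figure D2:**
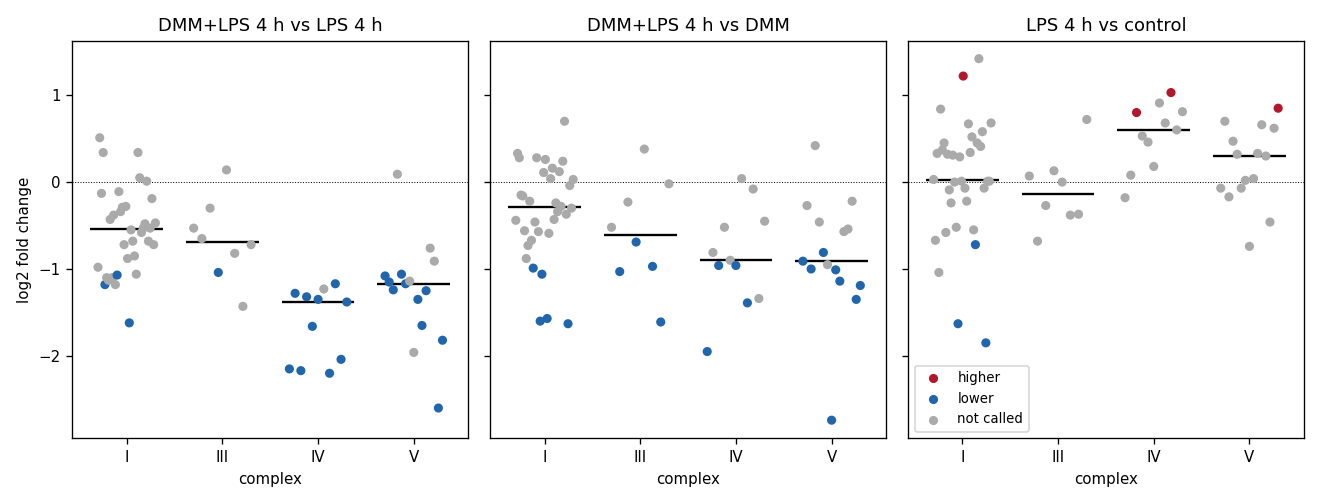
Log2 fold change (vertical axis) of each tested member by complex in 3 comparisons. Points are genes, coloured by call at an adjusted p under 0.05, and black lines are medians; in the left panel 10 of 11 complex IV genes and 10 of 15 complex V genes are called lower (Atp5a1 and Atp5b are at 0.06 and 0.02 under cyclic loess scaling), and in the right panel the complex IV median lies at 0.6.

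Other measures moved with this comparison. Ribosomal protein genes took 0.484% and 0.51% of counts in DMM+LPS 4 h libraries, against 1.48% and 1.58% in LPS 4 h libraries, and 68 of 84 of them fell, with a median log2 fold change of -2.22. The ferritin gene Fth1 alone took 11% and 10.6% of counts with DMM, against 5.25% and 5.61% without it, and the 10 most abundant genes took 49.2% and 51.6% with DMM, against 33% and 34.7% without it. The fold change also followed abundance. Among genes averaging at least 51.8 CPM, 19 of 28 members and 469 of 1335 other genes were called lower (67.9% and 35.1%), with medians of -1.18 and -0.76. Scaling by cyclic loess, which removes a trend of the change with abundance, left 9 members called lower (Cox4i1, Cox5b, Cox7a2l, Cox7c, Atp5h, Atp5j, Atp5l, Atp5o and Ndufb7), and called Atp5d 0.97 higher. Under that scaling all 11 complex IV genes were still negative, with a median of -0.82, and the median over the members was -0.6. For this comparison the share called and the median over all genes under that scaling are not given. Later counts under that scaling likewise stand without a share over all genes. The part of these measures in the members' result was not tested.

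**Figure D3:**
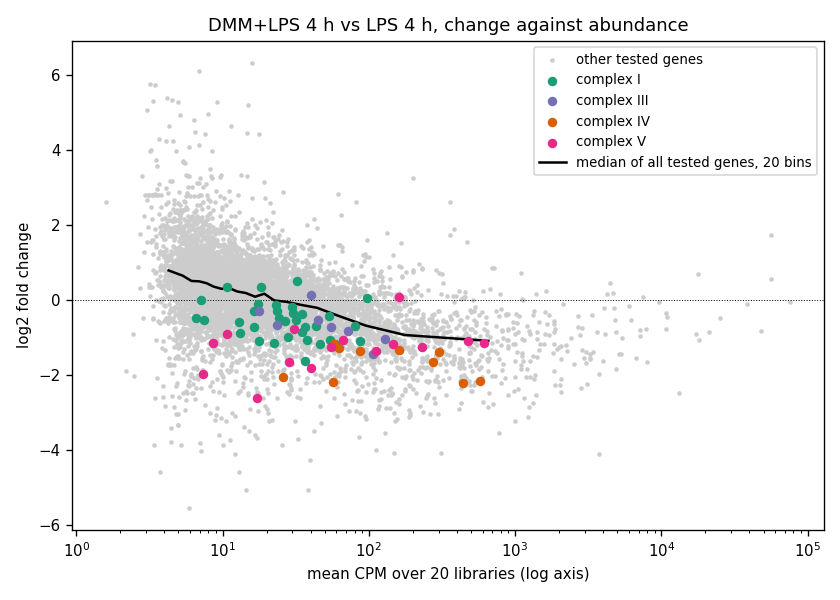
Log2 fold change of DMM+LPS 4 h against LPS 4 h (vertical axis) by mean CPM over 20 libraries (horizontal log axis). Grey points are other tested genes, coloured points are members by complex, and the black line joins medians of 20 bins of all tested genes; the line falls with abundance, and complex IV genes lie between -2.2 and -1.17.

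Cell type markers moved as well. Of 9 macrophage markers 3 were lower, Csf1r, Emr1 and Itgam, by 1.43, 1.66 and 2.04 on the log2 scale, and the list summed to 85860 and 127900 CPM in DMM+LPS 4 h libraries, against 124200 and 143900 CPM in LPS 4 h libraries. Of 11 neutrophil markers, 10 were at 0 counts in both DMM+LPS 4 h libraries, among them S100a9, Ly6g, Elane, Mpo and Ltf. The neutrophil list summed to 199.5 and 320.3 CPM with DMM, against 42.7 and 68.9 CPM without it, nearly all of it S100a8. Fibroblast markers summed to 40.5 and 33.4 CPM with DMM, against 17.1 and 6.45 CPM without it, mostly Dcn. Tnf and Irg1, LPS-response genes, fell by 1.58 and 1.61 on the log2 scale and Nos2 rose by 1.61.

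The number of members called rested on each library. Without DMM+LPS 4 h library 1 it was 6 and without library 2 it was 16; without LPS 4 h library 1 it was 10 and without library 2 it was 9, all of them lower. A single library in a group was then assumed to vary like the other groups. With all 21 libraries 10 were called, all lower.

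Promoters are shown for 4 of the 5 members whose response to LPS differed with DMM (below), and for Cox6a1 and Atp5h, members that fell and hold matches to both motifs marked. Each line gives the 250 bases before the gene's start in RefSeq (GRCm38.p6), 5′ to 3′ on the gene's strand. Capitals mark matches to NRF1 (GCGC, then any base, then TGCGC) or to the ETS factor GABPA (CCGGAAG) on either strand, 2 factors known for activating genes of respiration.
Cox5b (chr1:36691237-36691486, plus strand): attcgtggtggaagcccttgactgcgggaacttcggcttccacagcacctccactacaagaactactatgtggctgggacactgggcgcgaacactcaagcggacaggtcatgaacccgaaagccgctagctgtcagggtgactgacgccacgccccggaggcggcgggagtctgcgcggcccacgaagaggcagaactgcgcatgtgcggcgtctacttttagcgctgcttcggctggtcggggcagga
Cox7a2l (chr17:83514334-83514583, minus strand): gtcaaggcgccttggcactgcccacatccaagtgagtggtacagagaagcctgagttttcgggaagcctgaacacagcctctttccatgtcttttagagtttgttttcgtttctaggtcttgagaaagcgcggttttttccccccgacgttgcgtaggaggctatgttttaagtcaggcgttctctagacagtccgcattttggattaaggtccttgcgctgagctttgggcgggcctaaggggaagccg
Atp5o (chr16:91931631-91931880, minus strand): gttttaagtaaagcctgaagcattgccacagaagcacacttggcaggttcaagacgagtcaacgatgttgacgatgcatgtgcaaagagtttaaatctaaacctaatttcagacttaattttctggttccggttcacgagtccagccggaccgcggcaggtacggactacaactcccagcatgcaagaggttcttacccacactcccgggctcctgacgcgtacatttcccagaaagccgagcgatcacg
Atp5l (chr9:44920743-44920992, minus strand): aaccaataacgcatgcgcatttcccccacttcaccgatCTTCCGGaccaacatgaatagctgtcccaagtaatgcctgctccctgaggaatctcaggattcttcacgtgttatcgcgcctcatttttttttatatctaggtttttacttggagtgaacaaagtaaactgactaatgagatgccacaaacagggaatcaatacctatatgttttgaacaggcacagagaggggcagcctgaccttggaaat
Cox6a1 (chr5:115348959-115349208, minus strand): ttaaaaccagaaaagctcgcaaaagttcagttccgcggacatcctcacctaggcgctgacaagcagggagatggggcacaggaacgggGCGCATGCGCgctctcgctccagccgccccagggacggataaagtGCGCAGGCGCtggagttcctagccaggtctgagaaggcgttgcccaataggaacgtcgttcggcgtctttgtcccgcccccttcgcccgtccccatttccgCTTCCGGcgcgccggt
Atp5h (chr11:115419920-115420169, minus strand): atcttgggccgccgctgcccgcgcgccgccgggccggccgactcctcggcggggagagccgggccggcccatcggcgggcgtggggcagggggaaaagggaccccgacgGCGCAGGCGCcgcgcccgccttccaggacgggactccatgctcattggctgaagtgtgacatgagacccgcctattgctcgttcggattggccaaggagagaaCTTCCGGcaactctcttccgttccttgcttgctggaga

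Cox6a1 held NRF1 matches at 162 and 117 bases before the start, the farther one on both strands since it reads alike on each, and a GABPA match at 16 bases. Atp5h held an NRF1 match at 141 bases and a GABPA match at 38 bases before the start. Atp5l held a GABPA match at 212 bases before the start. Cox5b, Cox7a2l and Atp5o held no match in these bases. The 50 bases after the start, which are not shown, held an NRF1 match at 9 bases in Atp5o and a further GABPA match at 24 bases in Atp5l. A RefSeq promoter was found for 66 of the 81 members. In the window from 250 bases before to 50 bases after the start, NRF1 matched 21.2% of those members, against 12.1% of other tested genes and 4.78% of all genes in the RefSeq table. GABPA matched 19.7% of members, against 21.4% of other tested genes and 9.12% of all genes. YY1 (AAGATGG), another factor known for acting on these genes, matched 16.7% of members, against 8.27% and 6.48%. Both strands were searched for each motif, and a match is only a description of the sequence.

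The same pretreated cells were next set against cells given DMM alone, which asks how LPS moved the members once DMM was present. After 4 h, 21 of 68 members fell and 0 rose (34.1% of all genes tested were called, 15.8% as higher and 18.3% as lower), and under cyclic loess scaling 2 rose and 16 fell. The members' median log2 fold change was -0.52, against 0 over all genes. Called members numbered 4 of 11 in complex IV, 8 of 15 in complex V, 4 of 8 in complex III and 5 of 34 in complex I. All 21 lay below every DMM library in both DMM+LPS 4 h libraries, which adds no support, since the same libraries gave the calls. In complex IV the widest difference was that of Cox4i1, with 130 and 173 CPM after DMM+LPS for 4 h, against 459, 488, 685 and 698 CPM after DMM alone (-1.95 ± 0.39, adjusted p = 0.000177). Cox7a2l had 121 and 183 CPM with LPS, against 301, 402, 383 and 494 CPM without it (-1.39 ± 0.33, adjusted p = 0.00124). Cox5b and Cox6c, each 0.96 lower on the log2 scale, were the called genes of this complex with the smallest differences. Cox5b had 16.9 and 30.6 CPM with LPS, against 33.3, 46.2, 49.8 and 47.8 CPM without it. Cox6c had 36 and 49.2 CPM with LPS, against 77.6, 59.6, 97.6 and 93.9 CPM without it.

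In complex V, Atp5g2, which codes for the same mature c-ring subunit as Atp5g1 and Atp5g3, had 0.562 and 2.79 CPM after DMM+LPS for 4 h, against 3.17, 9.69, 13.7 and 12.2 CPM after DMM alone (-2.74 ± 0.71, adjusted p = 0.00295), and its stimulated values rest on 1 and 3 counts. Atp5l had 5.06 and 6.5 CPM with LPS, against 20.6, 6.71, 17.6 and 16.5 CPM without it (-1.35 ± 0.46, adjusted p = 0.0208). DMM library 2 came close to the stimulated ones for this gene. Atp5f1, a subunit of the peripheral stalk, had 77.6 and 76.1 CPM with LPS, against 93.5, 116, 167 and 162 CPM without it (-0.81 ± 0.31, adjusted p = 0.0411). Atp5a1 had 233 and 290 CPM with LPS, against 512, 476, 566 and 405 CPM without it (-0.91 ± 0.29, adjusted p = 0.0146).

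Complex III had 4 called genes of 8. Uqcrh, the hinge protein of complex III, had 39.3 and 44.6 CPM after DMM+LPS for 4 h, against 57, 96.9, 164 and 189 CPM after DMM alone (-1.61 ± 0.46, adjusted p = 0.0101). Uqcrfs1, the Rieske iron-sulphur protein that hands electrons on to cytochrome c1, had 34.8 and 42.7 CPM with LPS, against 82.4, 62.6, 76.1 and 82.6 CPM without it (-0.97 ± 0.26, adjusted p = 0.00382). Both were lower in each stimulated library. Uqcr11, a small subunit, had 11.2 and 11.1 CPM with LPS, against 22.2, 19.4, 20.5 and 29.6 CPM without it (-1.03 ± 0.34, adjusted p = 0.0187). Uqcrc1 had 74.7 and 73.4 CPM with LPS, against 135, 118, 113 and 114 CPM without it (-0.69 ± 0.25, adjusted p = 0.0285).

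In complex I, Ndufs8, a core subunit that holds iron-sulphur clusters, had 12.4 and 10.2 CPM after DMM+LPS for 4 h, against 34.8, 29.8, 44.9 and 33.9 CPM after DMM alone (-1.63 ± 0.34, adjusted p = 0.000341). Ndufb11, an accessory subunit, had 7.31 and 6.5 CPM with LPS, against 15.8, 13.4, 22.4 and 33 CPM without it (-1.6 ± 0.44, adjusted p = 0.00483). The called accessory genes with the smallest differences were Ndufa7 and Ndufb3. Ndufa7 had 18.5 and 29.7 CPM with LPS, against 42.8, 35, 56.6 and 53 CPM without it (-0.99 ± 0.37, adjusted p = 0.0381). Ndufb3 had 10.7 and 8.36 CPM with LPS, against 17.4, 19.4, 18.5 and 25.2 CPM without it (-1.06 ± 0.34, adjusted p = 0.0151). Ribosomal protein genes moved with this comparison too, with 72 of 84 lower and a median of -2.37. Fth1 took 11% and 10.6% of counts in DMM+LPS 4 h libraries, against 1.88% to 2.54% in DMM libraries. Neutrophil markers summed to 199.5 and 320.3 CPM with LPS, against 0 to 3.17 CPM without it, and fibroblast markers summed to 40.5 and 33.4 CPM, against 1.49 to 7.81 CPM. S100a8 and Dcn made up most of these sums and were at 0 in all 4 DMM libraries. Of 9 macrophage markers 4 rose and 1, Cd68, fell, and the list summed to 85860 and 127900 CPM with LPS, against 56020 to 64460 CPM without it. The part of these measures in the members' result was not tested. Without DMM+LPS 4 h library 1 the count of called members was 3, and without library 2 it was 14; leaving out 1 DMM library gave 15 to 25.

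The response to 4 h of LPS differed with DMM for 5 members (5.43% of all genes tested were called for this interaction, 0.94% as higher and 4.49% as lower), all more negative with DMM. The interaction is the log2 fold change of DMM+LPS 4 h against DMM minus that of LPS 4 h against control. The called share of the members was 7.35%, near the 5.43% of all genes. The interaction was -2.06 ± 0.45 for Cox7a2l (adjusted p = 0.00524), -2.04 ± 0.47 for Atp5o (adjusted p = 0.00744) and -1.76 ± 0.42 for Cox5b (adjusted p = 0.00912). Cox4i1 and Atp5l gave -1.76 ± 0.52 and -1.98 ± 0.58 (adjusted p = 0.0383 and 0.0393). The members' median interaction was -0.76, against -0.03 over all genes, and 12 of 68 members were positive. All 11 complex IV genes were negative, from -2.06 to -0.87. Without DMM+LPS 4 h library 1 no member was called, by edgeR, and leaving out another library of the 4 groups gave 3 to 7. Cyclic loess scaling left 3, with Cox4i1 and Atp5l at -0.79 and -1.91 and no longer called (adjusted p = 0.119 and 0.0623, limma-voom); without the minimum on low counts 8 were called, and with all 21 libraries 1 was.

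**Figure D4:**
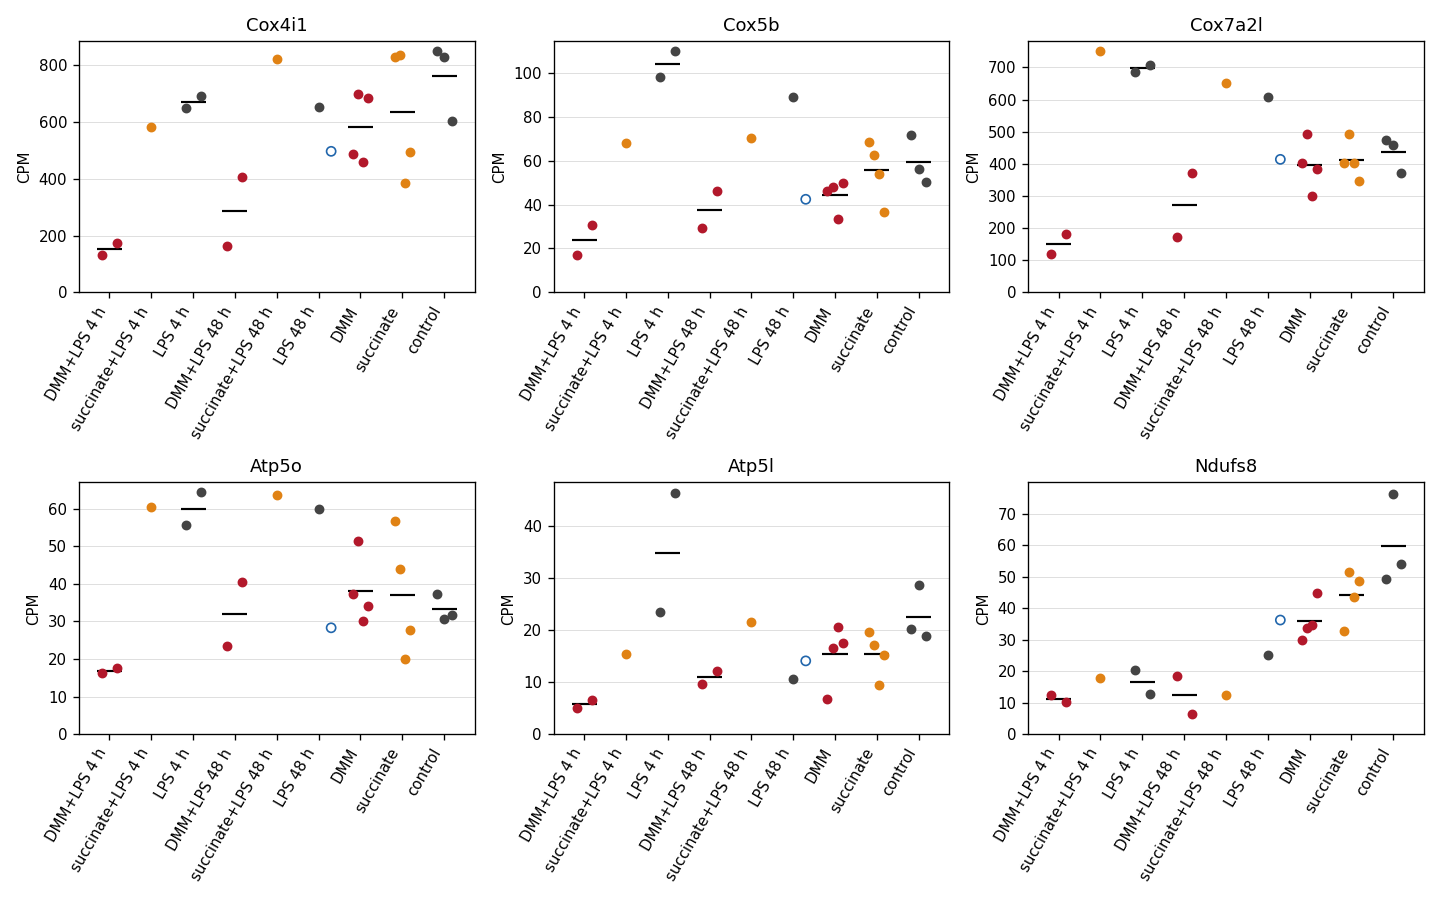
CPM (vertical axes) of the 5 members whose LPS response differed with DMM, and of Ndufs8, by group. Points are libraries, black lines are means of groups with more than 1 library, and the open circle is the LPS 48 h library kept apart; Cox7a2l is at 121 and 183 CPM in DMM+LPS 4 h libraries and at 687 and 708 CPM in LPS 4 h libraries, and Ndufs8 is at or below 25.1 CPM in every stimulated library used.

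In cells that had no DMM, LPS alone moved few members. After 4 h, 4 members rose and 3 fell of 68 (10.3%, against 27.9% of all genes tested, 15.4% as higher and 12.5% as lower). The median log2 fold change was 0.15 for the members and -0.07 for all genes. Complex IV had a median of 0.6 with 10 of 11 genes positive, and complex I had a median of 0.02 with 20 of 34 positive. Cox7b, a small complex IV subunit, had 60.8 and 120 CPM after LPS for 4 h, against 38.8, 39.9 and 54.5 CPM in control libraries (1.03 ± 0.33, adjusted p = 0.0191). Cox5b had 98.1 and 110 CPM with LPS, against 56.1, 50.4 and 71.6 CPM in controls (0.8 ± 0.28, adjusted p = 0.0308). The LPS libraries lay above all controls for both genes. Atp5o had 55.5 and 64.5 CPM with LPS, against 30.6, 31.7 and 37.3 CPM in controls (0.85 ± 0.32, adjusted p = 0.0469). Ndufb6, an accessory subunit of complex I, had 19.2 and 23.7 CPM with LPS, against 11.2, 4.69 and 11.1 CPM in controls (1.22 ± 0.45, adjusted p = 0.0407).

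The 3 members that fell after 4 h of LPS all belong to complex I, and values are given for 2 of them. Ndufs8 had 20.3 and 12.9 CPM with LPS, against 76.5, 54 and 49.4 CPM in controls (-1.85 ± 0.35, adjusted p = 0.000107). Ndufb11 had 3.2 and 14 CPM with LPS, against 29.6, 18.8 and 31.3 CPM in controls (-1.63 ± 0.47, adjusted p = 0.00908). With the unstimulated libraries split into a 4 h and a 48 h set, as read from the numbering of the columns, 8 members rose and 3 fell, and under cyclic loess scaling 1 rose and 5 fell. DESeq2 called 1 higher and 2 lower, and with all 21 libraries 0 rose and 2 fell. Without control library 3 or LPS 4 h library 2 no member was called higher and 2 were called lower; the total was 4 without control library 1, 3 without LPS 4 h library 1 and 11 without control library 4. Ribosomal protein genes took 1.48% and 1.58% of counts in LPS 4 h libraries, against 2.43% to 3.47% in controls, and Fth1 took 5.25% and 5.61%, against 2.44% to 3.26%. Neutrophil markers summed to 42.7 and 68.9 CPM with LPS, against 0 to 2.35 CPM in controls, and of 9 macrophage markers 5 rose and 1 fell. The part of these measures was not tested.

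After 48 h of LPS, 1 library against the 3 controls, 1 member rose and 1 fell (2.94%, against 20.8% of all genes tested, 12.5% as higher and 8.29% as lower). Uqcrq, a small complex III subunit that supports cytochrome b, had 100 CPM with LPS, against 46.9, 37.5 and 53.5 CPM in controls (1.12 ± 0.35, adjusted p = 0.0198). Ndufs8 had 25.1 CPM with LPS, against 76.5, 54 and 49.4 CPM in controls (-1.25 ± 0.42, adjusted p = 0.0301). The median was 0.2 for members and -0.09 for all genes. Under cyclic loess scaling 2 members rose and 1 fell. DESeq2 and the fit with all 21 libraries each called 0. With all controls, 8 members had an unadjusted p under 0.05. As read from the column numbering, the 48 h set holds only control library 4. A fit against that set alone compares 1 library with 1 and cannot check these calls. Leaving out control library 1 or 3 left 1 call, and leaving out control library 4 gave 4.

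Ndufs8 was the only member called in the same direction in all 4 comparisons of an LPS group with its unstimulated counterpart. Its level lay between 6.58 and 25.1 CPM in the 9 stimulated libraries used, and between 29.8 and 76.5 CPM in the 11 unstimulated ones. That the 2 ranges did not overlap adds no support, since the same libraries gave the calls. How many of all genes tested were called alike in all 4 comparisons was not counted. The LPS 48 h library kept apart had 36.3 CPM, within the unstimulated range. These comparisons share control or DMM libraries in pairs.

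After 48 h of LPS in DMM-pretreated cells, against DMM alone, 1 member rose and 5 fell of 68 (8.82%, against 30.8% of all genes tested, 15.4% in each direction), with medians of -0.09 for members and -0.03 for all genes. Cox4i1 had 163 and 408 CPM after DMM+LPS for 48 h, against 459, 488, 685 and 698 CPM after DMM alone (-1.03 ± 0.37, adjusted p = 0.0316). Atp5a1 had 213 and 323 CPM with LPS, against 512, 476, 566 and 405 CPM without it (-0.87 ± 0.29, adjusted p = 0.022). Both genes were lowest in DMM+LPS 48 h library 1. Ndufs8 had 18.6 and 6.58 CPM with LPS, against 34.8, 29.8, 44.9 and 33.9 CPM without it (-1.46 ± 0.35, adjusted p = 0.00153). Uqcrfs1 had 33.2 and 61.1 CPM with LPS, against 82.4, 62.6, 76.1 and 82.6 CPM without it (-0.69 ± 0.26, adjusted p = 0.0407). Uqcrh was the gene of these whose groups overlapped, with 38.9 and 67.6 CPM with LPS, against 57, 96.9, 164 and 189 CPM without it (-1.27 ± 0.45, adjusted p = 0.04). Ndufa9, an accessory subunit that stabilises the junction of the 2 arms of complex I, had 25.1 and 22.5 CPM with LPS, against 9.5, 13.4, 8.78 and 17.4 CPM without it (0.91 ± 0.31, adjusted p = 0.0255). With the DMM libraries of the 48 h set alone, as read from the column numbering, 3 members fell and 0 rose, and under cyclic loess scaling 2 rose and 4 fell. The count was 14, all lower, without DMM+LPS 48 h library 2; it was 1 without DMM library 3, and 4 to 6 without another library, with 4 of 5 higher when DMM+LPS 48 h library 1 was the one left out. Without the minimum on low counts 3 were called, all lower. Of 84 ribosomal protein genes 50 fell and 1 rose, and they took 0.718% and 1.09% of counts in DMM+LPS 48 h libraries, against 1.79% to 3.1% in DMM libraries. Fth1 took 12.4% and 10.5%, against 1.88% to 2.54%. S100a8 had 12.1 and 12.2 CPM and Dcn 12.1 and 8.45 CPM with LPS, against 0 in all 4 DMM libraries. Of 9 macrophage markers 3 rose and Csf1r fell, with the rise of Emr1 at 2.92 on the log2 scale. The part of these measures was not tested.

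Set against LPS 48 h, DMM+LPS 48 h had 0 of 68 members called by edgeR's quasi-likelihood test (0.807% of all genes tested were called), 13 had an unadjusted p under 0.05 and DESeq2 called 1. The 0.807% holds for the adjusted p only and is no background for the 13. The median was -0.51 for members and 0.01 for all genes, and all 11 complex IV genes were negative, from -1.25 to -0.29. Cox5b, which had the smallest p, had 29.2 and 46 CPM with DMM, against 88.8 CPM without it (-1.25 ± 0.38, adjusted p = 0.117). The fit called 12 members lower without DMM+LPS 48 h library 2 and none without library 1. Ribosomal protein genes took 0.718% of counts in library 1 and 1.09% in library 2, against 1.46% in the LPS 48 h library, and their part was not tested.

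The later against the earlier DMM+LPS libraries gave 0 called members by edgeR (1.17% of all genes were called), with 12 at an unadjusted p under 0.05 and none by DESeq2. The log2 fold change of 48 h against 4 h was positive for 58 of 68 members, with a median of 0.45 against 0.03 over all genes. It was positive for all 11 complex IV genes, from 0.49 to 1.31, but the libraries of the 2 times overlapped for each of them. Complex IV summed to 803 CPM in DMM+LPS 48 h library 1, between the 4 h libraries (710 and 1085 CPM), and to 2150 CPM in library 2. Ribosomal protein genes took 0.718% and 1.09% of counts at 48 h, against 0.484% and 0.51% at 4 h, and their part was not tested. Without DMM+LPS 48 h library 1 the fit called 10 members higher at 48 h.

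Without LPS, neither metabolite changed a member past the test. DMM against control gave 0 called members (0.558% of all genes tested were called) and 6 at an unadjusted p under 0.05, with a median of -0.23 for members, 0.02 for all genes and 13 of 68 members positive. Ndufs8 had 34.8, 29.8, 44.9 and 33.9 CPM with DMM, against 76.5, 54 and 49.4 CPM in controls (-0.75 ± 0.25, adjusted p = 0.19). Every DMM library lay below every control for this gene. The same held for Atp5e, Atp5f1, Atp5g3, Atp5k, Cox5b, Ndufa10 and Uqcrfs1, while for Ndufb3 and Ndufs4 every DMM library lay above. How many of all genes tested were apart in this way was not counted, so it adds no support. Succinate against control gave 0 called members (0% of all genes tested were called) and 1 at an unadjusted p under 0.05, with a median of -0.19 for members and 0.03 for all genes. Atp5k, which codes for subunit e of complex V, had 5.88, 10.9, 8.33 and 11.7 CPM with succinate, against 17.3, 17.6 and 18.2 CPM in controls (-0.92 ± 0.38, adjusted p = 0.897), and DMM libraries had 3.17, 4.47, 12.7 and 10.4 CPM (-1.15 ± 0.39 against controls, adjusted p = 0.202). DMM against succinate gave 0 called members (0.22% of all genes) and 2 at an unadjusted p under 0.05, with a median of -0.04 for members and -0.02 for all genes. DESeq2 called no member in these 3 comparisons, and the 4 h set alone gave no call. In the 48 h set alone, DMM against succinate gave no call. That set, as read from the column numbering, holds only control library 4, so its comparisons with control could hardly give a call.

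Succinate before LPS likewise gave no call among the members. With 1 succinate library at each time, succinate+LPS 4 h against LPS 4 h called 0 of 68 members by edgeR and by DESeq2 (1.03% of all genes by edgeR), with 4 at an unadjusted p under 0.05 and a median of 0.11, against -0.03 over all genes. Succinate+LPS 48 h against LPS 48 h called 0 by both tools (0.558% of all genes by edgeR), with 1 at an unadjusted p under 0.05 and a median of 0.09, against 0.01. Complex IV sums were 2968 CPM in the succinate+LPS 4 h library, against 2903 and 3089 CPM in LPS 4 h libraries, and 3206 CPM in the succinate+LPS 48 h library, against 2786 CPM in the LPS 48 h library.

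Over all comparisons made, 36 of the 68 tested members were called at least once and 32 in none. The share of all genes called at least once was not counted, and up to 34.1% were called in 1 comparison. The 36 therefore says nothing particular to the members. Several members are alternative forms of 1 subunit. The forms known from muscle, Cox6a2, Cox7a1 and Cox8b, never exceeded 2 counts in a library, and those known from testis, Cox6b2, Cox7b2 and Cox8c, never exceeded 5. Cox4i2, the form of Cox4i1 that hypoxia induces, held 1 count over all 21 libraries. Ndufa4l2, a relative of Ndufa4 that responds to hypoxia, held 0 counts in every library, as did Cox8c; the 3 counts that such a 0 allows are worth 1.69 to 4.75 CPM. Ndufa4, named for complex I and now assigned to complex IV, had 27 and 41.8 CPM in DMM+LPS 4 h libraries, against 48 and 43 CPM in LPS 4 h libraries, and was not called. Of the 3 c-ring genes, Atp5g3 had 48.3 and 56.6 CPM with DMM, against 135 and 131 CPM with LPS alone for 4 h (-1.35 ± 0.33, adjusted p = 0.00467). Atp5g1 and Atp5g2 were not called there, with 6.18 and 2.79 CPM and 0.562 and 2.79 CPM with DMM, against 8.53 and 12.9 CPM and 5.33 and 6.45 CPM without it. The other untested members were Atp5l2, Atp5s, Atp5sl, Ndufb2 and Ndufb4, with 1, 2, 8, 5 and 11 counts in their highest libraries.

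Among other genes of the pathway, those of complex II gave 2 lower of 4 tested after DMM+LPS for 4 h against LPS 4 h. Over all genes tested, 10.5% were called lower and 3.54% higher in this comparison. Sdha, the flavoprotein subunit that oxidises succinate, had 89.9 and 87.3 CPM with DMM, against 174 and 152 CPM without it (-0.88 ± 0.28, adjusted p = 0.03). Sdhb, its iron-sulphur partner, had 71.9 and 83.6 CPM with DMM, against 157 and 154 CPM without it (-1 ± 0.28, adjusted p = 0.0149). Of 11 tested carriers, further subunits and the ATP synthase inhibitor, 3 fell: the phosphate carrier Slc25a3, the ADP/ATP carrier Slc25a5 and Usmg5, a small ATP synthase subunit, with log2 fold changes of -1.41, -1.35 and -1.44. Of 11 tested subunits encoded by mitochondrial DNA 3 fell, mt-Nd1, mt-Nd5 and mt-Co2, with log2 fold changes of -1.64, -1.52 and -1.3, and the list's median was -0.81. Assembly factors were called in 0 of 6 tested cases for complex I, 0 of 10 for complex IV and 0 of 2 for complex V, by edgeR, with 2, 2 and 0 at an unadjusted p under 0.05. Of 8 tested regulators 1 rose, Nrf1, which activates nuclear respiration genes, with 26 CPM on average with DMM, against 8.56 CPM without it (1.63 ± 0.47, adjusted p = 0.0179).

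For LPS 4 h against control, the carrier list held 2 higher and 3 lower of 11, against 15.4% higher and 12.5% lower over all genes tested. Cycs, cytochrome c, and Usmg5 rose by 2.06 and 1.08 on the log2 scale, while Atpif1, the inhibitor of ATP synthase, and Etfdh, which passes electrons from fatty acid oxidation to ubiquinone, fell by 1.58 and 1.32. The complex IV assembly factor Coa5 rose by 1.27 and the complex I assembly factor Ndufaf5 by 1.25. Hif1a, the hypoxia-inducible factor, averaged 686 CPM with LPS, against 64.3 CPM in controls (3.42 ± 0.34, adjusted p = 2.13e-09). Of 11 mitochondrially encoded subunits 3 fell, mt-Nd2, mt-Nd3 and mt-Cytb, with log2 fold changes of -1.01, -1.94 and -0.82. After DMM+LPS for 4 h against DMM, 10 of these 11 fell, with a median of -1.43, against 18.3% lower over all genes tested. After DMM+LPS for 48 h against DMM, 8 of 11 fell, with a median of -1.06, against 15.4% lower over all genes tested.

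Exons of 21 of the 68 tested members overlap another protein-coding gene in the GENCODE annotation used here, among them Atp5a1, Atp5f1, Cox4i1, Cox6c, Ndufa13, Ndufb11 and Ndufb6. No source used here says if counting used strand, so their counts may include reads of the neighbour and are uncertain. Many members also have processed pseudogene copies, with which reads could be split.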

How the data were processed

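RNA was sequenced from mouse bone-marrow-derived macrophages lysed in RLT buffer. Per the labels' protocols, full-length cDNA was made by a modified SmartSeq2 method, which uses template switching and amplification, and no molecular identifiers are named, so the floors given cover counting error only. The authors deposited 1 table of read counts, whole numbers by gene symbol in 21 libraries. TopHat2, Bowtie, HTSeq and edgeR are named in the submitters' processing notes. Their versions, the genome build and the annotation are in no source used here.

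The members, gene lists and tests were chosen with earlier results of these data known. Stimulated columns were assigned by treatment, hours and number. Unstimulated columns carry a treatment and a number from 1 to 4 without hours, so each treatment was 1 group. The library labelled LPS 48 h replicate 1 was kept out of the comparisons.

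A gene was kept if at least 2 libraries reached the CPM that 10 reads make in a library of median size and its total was at least 15, which left 6812. Libraries were scaled by TMM in edgeR 4.0.16 (R 4.3.3), and CPM values are per TMM-scaled total of kept genes. They are not per length, so levels are compared between groups and not between genes. All comparisons came from 1 quasi-likelihood model with robust estimation of 9 groups on 20 libraries, with 11 residual degrees of freedom, a common biological coefficient of variation of 0.23 and Benjamini-Hochberg adjustment over all genes tested at 0.05. A group of 1 library was assumed to vary like the others. The standard error is the absolute log2 fold change over the square root of F. The procedure was tested on simulated data.

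Values are given by library for the 2 called members with the highest and the 2 with the lowest log2 fold change in each complex and comparison, for all called members where a comparison had 5 or fewer, and for paralogs; other genes named outside this rule were chosen after their values were seen. The values of 1 called member are not reported here. Alternatives were DESeq2 1.42.0, median-of-ratios scaling, no filter, a replicate block, a split of the unstimulated groups, all 21 libraries and leaving out single libraries. Each unstimulated set alone, and cyclic loess scaling with limma-voom (limma 3.58.1), were added after seeing the data. Promoter sequences and their coordinates are from RefSeq for GRCm38.p6, which need not be the authors' build. GENCODE vM21 gave gene overlaps and exon lengths. The median exon length was 1578 bp for the 68 tested members, against 4498.5 bp over all tested genes with a length. The part of length in the members' result was not tested.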

Additional observations from a re-analysis of the deposited data

Results flagged for a closer look

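The response to 4 h of LPS differed between cells with DMM and cells without it for 5 members, by edgeR's test of the difference itself. These are 7.35% of the 68 tested members, near the 5.43% called over all genes tested, so the count says nothing particular to the members. The difference, the log2 fold change with DMM minus that without DMM, was -2.06 for Cox7a2l, -2.04 for Atp5o, -1.98 for Atp5l, -1.76 for Cox4i1 and -1.76 for Cox5b. Cox7a2l, Cox5b and Cox4i1 were counted with complex IV, and Atp5o and Atp5l with complex V. Without DMM, Cox5b and Atp5o rose by 0.8 and 0.85 on the log2 scale after LPS, and Atp5o, Atp5l, Cox4i1, Cox5b and Cox7a2l fell after LPS once DMM was present. No member was called for this difference when DMM+LPS 4 h library 1 was left out. Among 88 tests of members and complex sums in the groups of 4 libraries for 1 library far from the others, 0 passed the critical value, where chance gives about 1 in 20.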

How the results depend on the processing

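Numbers here are members called, out of 68 tested unless a setting says otherwise. Median-of-ratios scaling in place of TMM moved no count by over 1.5 times. With all 21 libraries, the one resembling unstimulated cells included, the count was 2 for LPS 4 h against control, 0 for LPS 48 h against control, 10 for DMM+LPS 4 h against LPS 4 h and 1 for the interaction. Without the minimum on low counts it was 1 for LPS 48 h against control, 3 for DMM+LPS 48 h against DMM and 8 for the interaction. With the unstimulated groups split by set it was 11 for LPS 4 h against control, 3 for DMM+LPS 48 h against DMM and 1 for DMM+LPS 48 h against LPS 48 h. That split left 1 library against 1 for LPS 48 h against control, so no count is given there. DESeq2 called 3 for LPS 4 h against control, 0 for LPS 48 h against control and 1 for DMM+LPS 48 h against LPS 48 h. Cyclic loess scaling gave 10 for DMM+LPS 4 h against LPS 4 h, 9 of them shared with TMM, and 3 for the interaction; Atp5a1 and Atp5b turned to 0.06 and 0.02, and the median over all genes of LPS 48 h against control was 0.05, against -0.09 with TMM. The cause of these differences was not tested.

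Replicates were matched by an inferred reading of the column numbers. Unstimulated columns 1 and 3 were read as partners of stimulated columns 1 and 2 at 4 h. Unstimulated columns 2 and 4 were read as partners of stimulated columns 1 and 2 at 48 h. These partners were not taken to pair the samples, since not every pair passed the limit of 0.1. The correlation of deviations was over 0.1 in 11 of 29 pairs of partners (median 0.05, range -0.2 to 0.26) and in 9 of 89 other pairs (median -0.02). Of 17 libraries with a partner, 9 correlated best with a partner, a hint from the data only. With the replicate block the count was 14 for LPS 4 h against control and 14 for the interaction, and no other count moved by over 1.5 times.

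Leaving out 1 library at a time gave 6 to 16 calls for DMM+LPS 4 h against LPS 4 h, 3 to 25 for DMM+LPS 4 h against DMM, 0 to 7 for the interaction, 2 to 11 for LPS 4 h against control, 1 to 4 for LPS 48 h against control, 1 to 14 for DMM+LPS 48 h against DMM, 0 to 12 for DMM+LPS 48 h against LPS 48 h and 0 to 10 for DMM+LPS 48 h against DMM+LPS 4 h. It gave 0 for DMM against control, succinate against control, DMM against succinate and succinate+LPS 4 h against LPS 4 h. Succinate+LPS 48 h against LPS 48 h has 1 library on each side, so leaving one out was not run. Of 65 gene results, DESeq2 kept 47 past the threshold and cyclic loess 39, and outside the 2 reversals named above none turned its direction under any alternative. At 662186 to 1546867 counts per library, a member under about 5 CPM rests on few counts, and a change in it may not be detectable at this depth.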
